A study of Mus musculus with 8 samples.

Results

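The genes described here are 41 long non-coding RNAs of mouse bone marrow-derived macrophages. They were the nuclear RNAs Malat1 and Neat1, 14 host genes of small nucleolar RNAs (snoRNAs), the microRNA host genes Mir17hg, Mir22hg and Dleu2, the imprinted antisense RNA Kcnq1ot1 and 21 RNAs named for the opposite strand of a neighbouring gene. Members were the genes with an Snhg symbol or a symbol ending in os, with or without a digit, together with 10 listed long non-coding RNAs, of which 8 were among the 11541 genes counted. Meg3 and Mir155hg were not among those genes. In all, 57 genes met this rule. Of these, 16 were protein-coding: Fos, Dos, Sos1, Sos2, Nrros, Pros1, Mocos, Mios, Uros, Minos1, Nanos1, Cebpzos, Zbtb8os, Wdr83os, Slc7a6os and Ccpg1os. These were set aside by their RefSeq gene type, which left the 41.

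Messenger RNA was sequenced from 4 libraries labelled OGFRL1_KO and 4 labelled OGFRL1_WT, called KO and wild type below. Both groups were non-adherent marrow cells grown for 4 days with macrophage colony-stimulating factor (M-CSF) at 25 ng/mL, and no other treatment, allele, strain or age is given. The labels do not say whether the libraries of a group came from separate animals, so a p-value here reflects variation among libraries, which may be technical. The long non-coding RNAs were chosen with the KO against wild-type contrast known. Their differences between genotypes are therefore a description, and nothing is read from how many of them passed a threshold.

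Long non-coding RNAs act without being translated. Malat1 is retained in nuclear speckles, bodies rich in splicing factors, and Neat1 is the scaffold around which paraspeckles form. The snoRNA host genes carry snoRNAs in their introns: the excised introns give snoRNAs that guide modification of ribosomal RNA, while the spliced transcript is often short-lived and, in several hosts, degraded by nonsense-mediated decay. In macrophages Malat1 and Neat1 are best known for links to inflammatory gene expression. In bulk RNA, fewer cells of a type and less RNA per cell cannot be told apart.

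Malat1 ends in an unusual way, so its 3′ end is shown first. It lacks a conventional poly(A) tail. In the genome-encoded end, a pair of U-rich motifs and an A-rich tract form a triple helix that protects the RNA, and the cut that makes this end lies just after the tract. The stretch below was read from the GENCODE M21 transcript (GRCm38, chr19:5795970-5796079, minus strand, transcript bases 6594 to 6703, written as DNA). Capitals mark the U-rich motifs and the A-rich tract, whose run of A is 12 bases long. Another 292 annotated bases follow the tract.
Malat1 3′ end: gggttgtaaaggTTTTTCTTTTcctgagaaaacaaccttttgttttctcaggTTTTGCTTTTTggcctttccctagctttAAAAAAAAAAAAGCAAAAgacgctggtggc

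The snoRNA hosts are a textbook case of genes that begin transcription at a C followed by a run of pyrimidines, the terminal oligopyrimidine motif shared with ribosomal protein genes, so their start sites are shown next. RefSeq start windows (GRCm38.p6) of 20 bases before to 30 bases from the annotated start were searched on the transcribed strand for a C within 1 base of the start followed by at least 4 C or T. Capitals mark that run, or the single annotated start base where no run was found. The first 4 windows below hold a run, and the last 3 belong to hosts described further on that do not.
Gas5: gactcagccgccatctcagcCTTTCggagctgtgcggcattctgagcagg
Snhg12: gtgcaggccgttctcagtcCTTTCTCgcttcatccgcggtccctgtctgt
Snhg7: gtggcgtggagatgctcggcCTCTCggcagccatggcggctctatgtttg
Snhg8: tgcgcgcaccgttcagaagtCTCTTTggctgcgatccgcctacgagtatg
Snhg1: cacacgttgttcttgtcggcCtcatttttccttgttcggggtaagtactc
Snhg5: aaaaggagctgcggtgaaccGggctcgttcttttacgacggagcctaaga
Snhg20: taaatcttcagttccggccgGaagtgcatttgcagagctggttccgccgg

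These windows lie at chr1:161035146-161035195 (plus strand) for Gas5, chr4:132308658-132308707 (plus) for Snhg12, chr2:26640215-26640264 (minus) for Snhg7, chr3:123508307-123508356 (minus) for Snhg8, chr19:8723467-8723516 (plus) for Snhg1, chr9:88522868-88522917 (minus) for Snhg5 and chr11:117076763-117076812 (plus) for Snhg20. A run was found in 4 of the 11 hosts searched, in 2 of 19 other long non-coding RNAs (Ggnbp2os, and Rab26os, which itself has a RefSeq snoRNA in its intron), and in 2077 of 32851 start windows of all genes (6.32%). The log2 fold changes of the hosts with a run, KO over wild type, were -0.38 for Gas5, -0.18 for Snhg8, -0.07 for Snhg12 and 0.03 (SE 0.26) for Snhg7. Without wild-type replicates 1 and 2, which stood apart as described below, they were -0.08, -0.14, -0.08 and -0.31 in the same order. A match is a description of these letters, and the start sites used in these cells were not measured.

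The microRNA hosts are known for the short RNAs cut from them, which these libraries did not measure. A few mature microRNAs are shown to tie each host to its product, with the seed (bases 2 to 8) in capitals. miR-17 and miR-20a share a seed, as do miR-15a and miR-16.
mmu-miR-17-5p: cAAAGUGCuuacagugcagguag
mmu-miR-20a-5p: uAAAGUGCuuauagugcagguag
mmu-miR-92a-3p: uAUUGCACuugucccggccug
mmu-miR-15a-5p: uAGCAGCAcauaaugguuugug
mmu-miR-16-5p: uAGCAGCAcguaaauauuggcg
mmu-miR-22-3p: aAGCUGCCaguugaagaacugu

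The first 3 come from the cluster at Mir17hg on chromosome 14, the next 2 from Dleu2 on chromosome 14 and the last from Mir22hg on chromosome 11 (RefSeq, GRCm38.p6). The gene counted as Mir17hg was 1 exon at chr14:115044390-115046728, plus strand. Of the 6 microRNA hairpins of the cluster, 4 lay outside it, Mir19b-1 overlapped it by 2 bases, and Mir92-1 lay inside. The counted exon thus lies mostly after the cluster. Mir15a and Mir16-1 lie in an intron of Dleu2 (chr14:61602836-61682373, minus strand), and Mir22 lies in an exon of Mir22hg (chr11:75461539-75466690, plus strand).

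Totals in the table ranged from 39601341 to 61556269 read counts per library, and the 41 long non-coding RNAs took 0.285 to 0.395% of them. Wild-type replicates 1 and 2 stood apart from the other libraries. Their mitochondrial reads were 6.07 and 7.03%, against 1.49 to 3.17% in the other 6 libraries, and their uniquely mapped reads 76.4 and 75.8%, against 83.83 to 87%. Ribosomal RNA reads were 1.79 and 1.83% in them and 2.71 to 9.10% elsewhere. Between genotypes none of these 3 measures passed an exact two-sided permutation test (p = 0.257, 0.2 and 0.371; Benjamini-Hochberg adjusted p = 0.457 over 6 measures; smallest possible p 0.0286). KO replicate 2 came next to wild-type replicates 1 and 2 in mitochondrial (3.17%) and ribosomal RNA reads (2.71%). Values without wild-type replicates 1 and 2 are given beside most results below. The part of the library differences in the results was not tested. Ogfrl1 itself was counted in every library, with 163 ± 23.7 CPM (read counts relative to library size, scaled by TMM factors) in KO and 213 ± 73.8 in wild type (SD, n = 4 each; edgeR adjusted p = 0.404), so its count does not check the labels. Its log2 fold change of -0.39 turned to 0.12 without wild-type replicates 1 and 2, which had its highest values, 267 and 284 CPM. All 8 macrophage markers were counted, at a summed 20722 to 22383 CPM in KO and 18554 to 21408 in wild type. No marker of B cells, T and NK cells, erythroid cells or mast cells was among the genes counted.

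Per deposited transcript length, Malat1 had the highest level of the 41 in these libraries, at a mean of 297 FPKM (fragments scaled to transcript length and library size). The libraries were made from messenger RNA, and Malat1 lacks a conventional poly(A) tail. How fully the libraries captured it was not measured, so its level beside other RNAs holds for these libraries only. Snhg1, Gas5 and Neat1 followed at 37.9, 34.2 and 33.98 FPKM. On the log2 FPKM scale these 3 had 5.23 ± 0.19, 5.07 ± 0.30 and 5.06 ± 0.30 (SD over 8 libraries), so their order is within the spread. The Neat1 value divides by 20771 bases, though a transcript of 3185 bases is also annotated, so its place depends on the length used. Mir22hg (24.3 FPKM), Snhg3 (21.6), Brip1os (18.02), Snhg6 (16.6), Snhg5 (15.6) and Zeb2os (15.01) came next. At the lower end were Kcnq1ot1, whose 83437 annotated bases spread its reads to 0.897 FPKM, and Snhg11 at 0.131 FPKM.

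**Figure D1:**
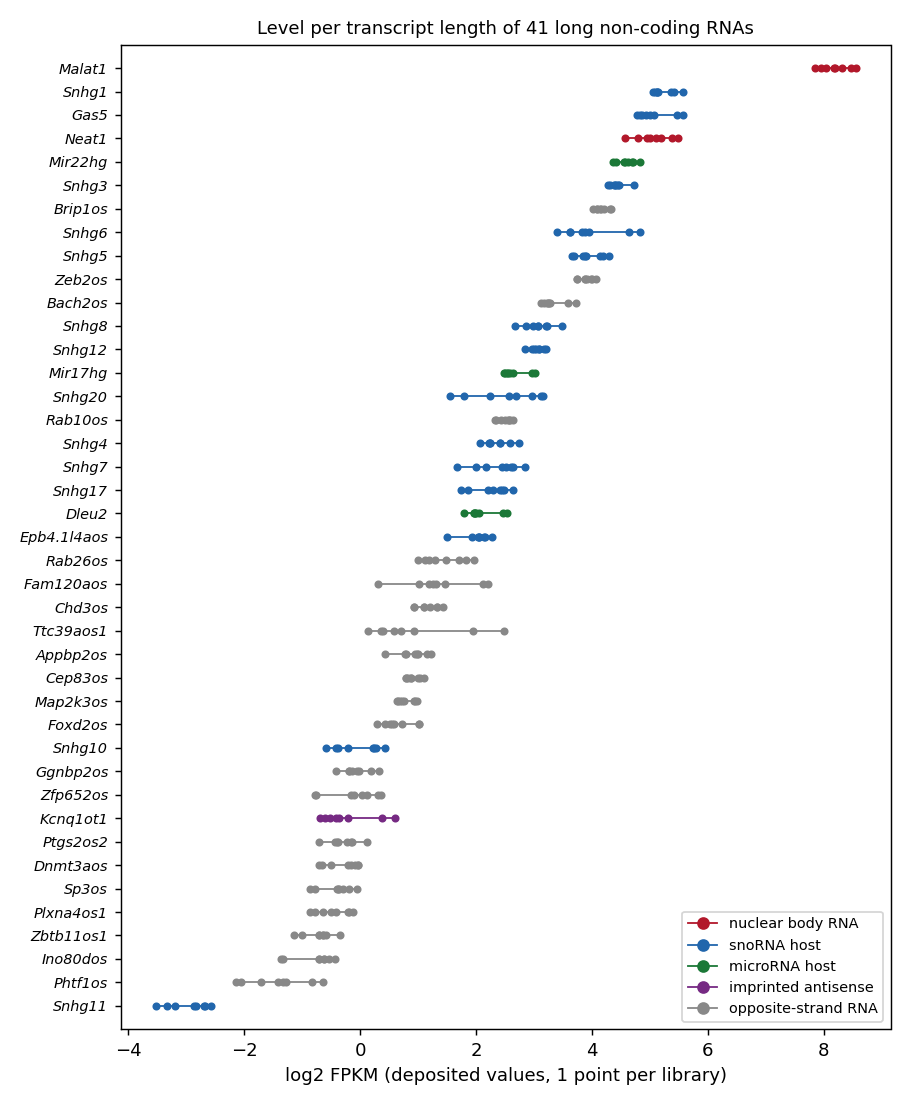
Deposited log2 FPKM of each of the 41 long non-coding RNAs in each of the 8 libraries, 1 point per library, ordered by mean and coloured by role. Malat1 lies alone at the upper end, and the libraries of Snhg1, Gas5 and Neat1 overlap.

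Malat1 was lower in every KO library than in any wild-type library, by a narrow margin. It is a single exon of 6982 bases on chromosome 19 (chr19:5795690-5802671, minus strand). In KO replicates 1 to 4 it had 1615, 1733, 2019 and 1839 CPM, against wild-type values of 2612, 2235, 2041 and 2486 CPM. The groups did not overlap, as for 1.42% of all genes in that direction, but KO replicate 3 and wild-type replicate 3 were nearly equal. The means were 1801 ± 171 CPM in KO and 2344 ± 255 CPM in wild type (SD, n = 4). The edgeR quasi-likelihood fit put the log2 difference, KO minus wild type, at -0.38, with an SE of 0.10 and a 95% interval from -0.62 to -0.14. Its unadjusted p was 0.00555 and its Benjamini-Hochberg adjusted p over all 11541 genes was 0.404, so it did not pass. The value was -0.33 without wild-type replicates 1 and 2 and -0.19 after correction for GC content.

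Neat1, transcribed from the same strand and separated from Malat1 by 22038 bases, did not share this pattern. It was at 761.6, 577.7, 712.8 and 868.1 CPM in KO replicates 1 to 4, against 643.6, 495.0, 662.2 and 925.6 CPM in the wild-type replicates in the same order. Both the highest and the lowest library were wild type, so the groups overlapped throughout. The means were 730.0 ± 120.5 CPM in KO and 682 ± 179 CPM in wild type, a log2 fold change of 0.10 (SE 0.19, 95% interval -0.34 to 0.53; adjusted p = 0.732). Its sign turned to -0.12 without wild-type replicates 1 and 2, to -0.03 without wild-type replicate 2 alone and to -0.07 with the ribosomal RNA percentage as a covariate. The 2 annotated transcripts start at about the same base, one of 3185 bases and one of 20769 bases, of which the long one builds paraspeckles. The count covers both and does not tell them apart.

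The count ratio of Malat1 to Neat1 was 2.12, 3, 2.83 and 2.12 in KO replicates 1 to 4. It was 4.06, 4.51, 3.08 and 2.69 in wild-type replicates 1 to 4. The highest ratios were those of wild-type replicates 1 and 2, and wild-type replicate 4 lay among the KO libraries. The ratio needs no scaling between libraries, but it depends on how fully these messenger RNA libraries captured Malat1, which was not measured. Its means were 2.52 ± 0.47 in KO and 3.59 ± 0.85 in wild type (SD, n = 4), or 2.88 in wild type without replicates 1 and 2. Together Malat1 and Neat1 took 82.1 to 86.7% of all reads on the 41 RNAs.

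**Figure D2:**
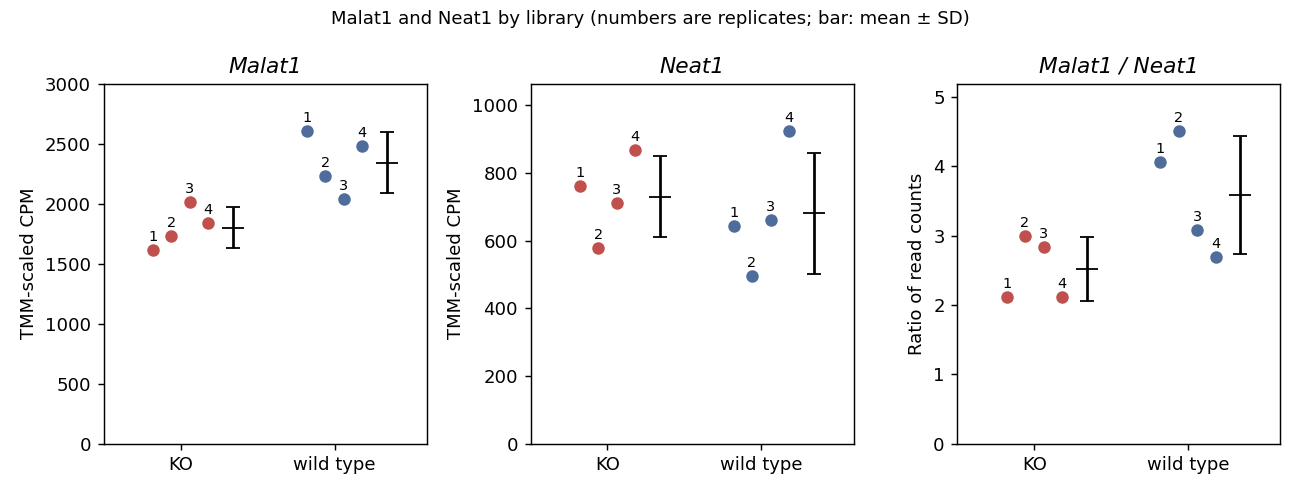
TMM-scaled CPM of Malat1 and Neat1 and the ratio of their read counts in each library, by genotype, with replicate numbers beside the points and the mean ± SD of 4 libraries as a bar. Malat1 does not overlap between genotypes (highest KO 2019, lowest wild type 2041 CPM), while Neat1 and the ratio do.

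The snoRNA hosts leaned lower in KO, by less than Malat1. Of the 14, 11 had a negative and 3 a positive log2 fold change, with a median of -0.20. Over all 11541 genes the median was -0.005 and 50.7% of genes were negative. None of the 14 passed at an adjusted p under 0.05, as none of all genes did (0.0%), with 0.404 as the smallest adjusted value. Snhg5, Gas5, Snhg1 and Snhg6, 4 of the hosts, had an unadjusted p under 0.05, all lower. Among all genes 6.52% had such a p, 4.51% lower and 2.01% higher. No host had groups that did not overlap, against 2.64% of all genes, 1.42% lower and 1.22% higher. Without wild-type replicates 1 and 2, 12 hosts were lower and 2 higher, with a median of -0.092, and after GC correction the median was -0.053.

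RefSeq places 35 snoRNAs or related guide RNAs in 13 of the 14 hosts, 29 of them in introns and 6 in exons, and none in Snhg20. Gas5 and Snhg1 hold 8 each and Snhg12 holds 4. Snord22 of Snhg1 and Snora17 of Snhg7 had counts of their own, at 1.06 to 2.40 and 0.575 to 1.18 CPM over the libraries. The libraries were made from messenger RNA, and mature snoRNAs have no poly(A) tail, so these counts are no measure of mature snoRNAs. Snord22 had 1.55 ± 0.37 CPM in KO and 1.94 ± 0.45 in wild type, and Snora17 had 0.838 ± 0.096 and 0.831 ± 0.278 (SD, n = 4).

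Snhg5, a host of box C/D snoRNAs on chromosome 9 (chr9:88521053-88522897), had the smallest p among the hosts. Its KO libraries, in replicate order, were at 14.9, 15, 13 and 12.7 CPM, and its wild-type replicates 19.8, 18.5, 14.6 and 17.7 CPM. Only wild-type replicate 3 fell within the KO range. This gave a log2 fold change of -0.34 (SE 0.12), and of -0.21 both without wild-type replicates 1 and 2 and after GC correction.

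Gas5, known as a growth arrest transcript that accumulates when translation is blocked, is on chromosome 1 (chr1:161035166-161038537). It had 74.6, 85.4, 70.1 and 72.9 CPM in KO replicates 1 to 4, and 122, 113, 78.4 and 81.7 CPM in wild-type replicates 1 to 4. Wild-type replicates 1 and 2 were well above the rest, and the other 2 lay within the KO range. Its log2 fold change of -0.38 (SE 0.15) became -0.08 without these 2 libraries and -0.16 after GC correction.

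Snhg1 (chr19:8723487-8726326) is the host whose introns gave the early evidence that a spliced RNA can be made for its introns alone. Its KO libraries were close together, at 15.7, 16.5, 16.7 and 16.6 CPM. The wild-type libraries were at 22.6, 19.5, 16.2 and 20.3 CPM, so replicate 3 alone lay in the KO range. Its log2 fold change of -0.26 (SE 0.11) was -0.15 without wild-type replicates 1 and 2 and -0.02 after GC correction.

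Snhg6 (chr1:9942025-9944118), host of Snord87, had the widest difference among the hosts that were lower. The KO replicates had 4.24, 5.76, 4.99 and 5.92 CPM, and the wild-type replicates 11.5, 10.1, 4.97 and 6.25 CPM. Wild-type replicates 1 and 2 were far above all other libraries, which ranged from 4.24 to 6.25 CPM. With all libraries the log2 fold change was -0.65 (SE 0.27). It became -0.10 without wild-type replicates 1 and 2 and -0.37 after GC correction.

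Snhg20 and Snhg17 went the other way, also along wild-type replicates 1 and 2. Snhg20 had 3.84, 2.80, 5.17 and 5.34 CPM in KO replicates 1 to 4 and 2.04, 1.73, 3.54 and 4.63 CPM in the wild-type replicates. Its log2 fold change was 0.51 (SE 0.34), and 0.07 without the 2 lowest libraries, wild-type replicates 1 and 2. Snhg17 had 16.9, 14.5, 17.2 and 17.8 CPM in KO and 11.5, 10.6, 15.4 and 19.6 CPM in wild type. Its 0.21 (SE 0.19) turned to -0.08 without wild-type replicates 1 and 2. Among the 12 hosts with a value, the transcript GC content of Snhg20 (53.1%) and Snhg17 (52.3%) was below only that of Epb4.1l4aos (55.3%). The median was 45.4% over the hosts and 49.3% over all genes. After GC correction Snhg20 was at 0.44 and Snhg17 at 0.14. Epb4.1l4aos was lower in KO, at -0.21, and at -0.44 after GC correction.

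The remaining hosts all had 95% intervals that include 0. Snhg4, host of Snora74a, had 5.36, 6.09, 4.79 and 5.42 CPM in KO and 7.65, 6.85, 5.40 and 6.09 CPM in wild type, a log2 fold change of -0.26 (SE 0.14) that was -0.08 without wild-type replicates 1 and 2. Snhg8 had -0.18, Epb4.1l4aos -0.21, Snhg11 -0.25 and Snhg12 -0.07, and without those libraries they had -0.14, -0.18, -0.05 and -0.08. Snhg3 and Snhg10 were both at -0.01, or at -0.10 and 0.05 without them, and Snhg10 rested on only 15 to 34 reads per library. Snhg7 was at 0.03 and turned to -0.31 without wild-type replicates 1 and 2. Snhg12 varied least, between 4.32 and 5.54 CPM over all 8 libraries.

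Malat1 and Neat1 were also set against the hosts within each library. The mean log2 CPM over the 14 hosts was 2.43 ± 0.08 in KO and 2.55 ± 0.09 in wild type (SD, n = 4). Malat1 exceeded that mean by 8.27, 8.41, 8.55 and 8.30 log2 units in KO replicates 1 to 4, and by 8.75, 8.62, 8.55 and 8.65 in wild-type replicates 1 to 4. KO replicate 3 and wild-type replicate 3 met, and the other KO libraries lay below all wild-type libraries. The group means were 8.38 ± 0.13 and 8.64 ± 0.08, a difference of -0.26, or -0.22 without wild-type replicates 1 and 2. Neat1 exceeded the host mean by 7.07 ± 0.18 in KO and 6.83 ± 0.33 in wild type, a difference of 0.24 with overlapping groups. Without wild-type replicates 1 and 2, which were lowest at 6.73 and 6.44, the wild-type mean was 7.08 and the difference was -0.0084. Since the members were chosen with the contrast known, no test of these differences was made. How fully libraries of messenger RNA captured Malat1, which lacks a conventional poly(A) tail, was not measured, so its excess holds for these libraries only.

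Among the microRNA hosts the highest libraries of Dleu2 and Mir17hg were again wild-type replicates 1 and 2. Dleu2, best known from a chromosomal region deleted in human leukaemia, had 6.75, 6.66, 6.61 and 5.81 CPM in KO and 9.77, 9.36, 6.97 and 6.59 CPM in wild type. Its log2 fold change was -0.34 (SE 0.15), -0.07 without those libraries and 0.04 after GC correction. Mir17hg, the precursor of a growth-promoting microRNA cluster, had 13.6, 14.5, 13 and 13.1 CPM in KO and 19, 18.3, 14 and 13.6 CPM in wild type. Its -0.26 (SE 0.13) was -0.02 without wild-type replicates 1 and 2 and 0.004 after GC correction.

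Mir22hg, whose exon holds miR-22, showed little difference. It had 43.7, 36.1, 42.0 and 45.7 CPM in KO and 50.0, 41.6, 37.7 and 46.2 CPM in wild type. The groups overlapped almost fully, with a log2 fold change of -0.07 (SE 0.11, 95% interval -0.32 to 0.18). Mir16-1, which lies in the intron of Dleu2, had a count of its own at 0.644 to 1.07 CPM over the libraries.

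Kcnq1ot1, the antisense RNA that silences imprinted neighbours on the paternal chromosome, is a single exon of 83437 bases on chromosome 7 (chr7:143213111-143296547, minus strand). It reached 65.2, 71.8, 54.8 and 51.7 CPM in the KO replicates, and 126, 108, 62.7 and 58.0 CPM in the wild-type replicates. Wild-type replicates 3 and 4 lay within the KO range and the other 2 far above it. The log2 fold change of -0.54 (SE 0.25) was 0.01 without wild-type replicates 1 and 2 and -0.23 after GC correction.

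**Figure D3:**
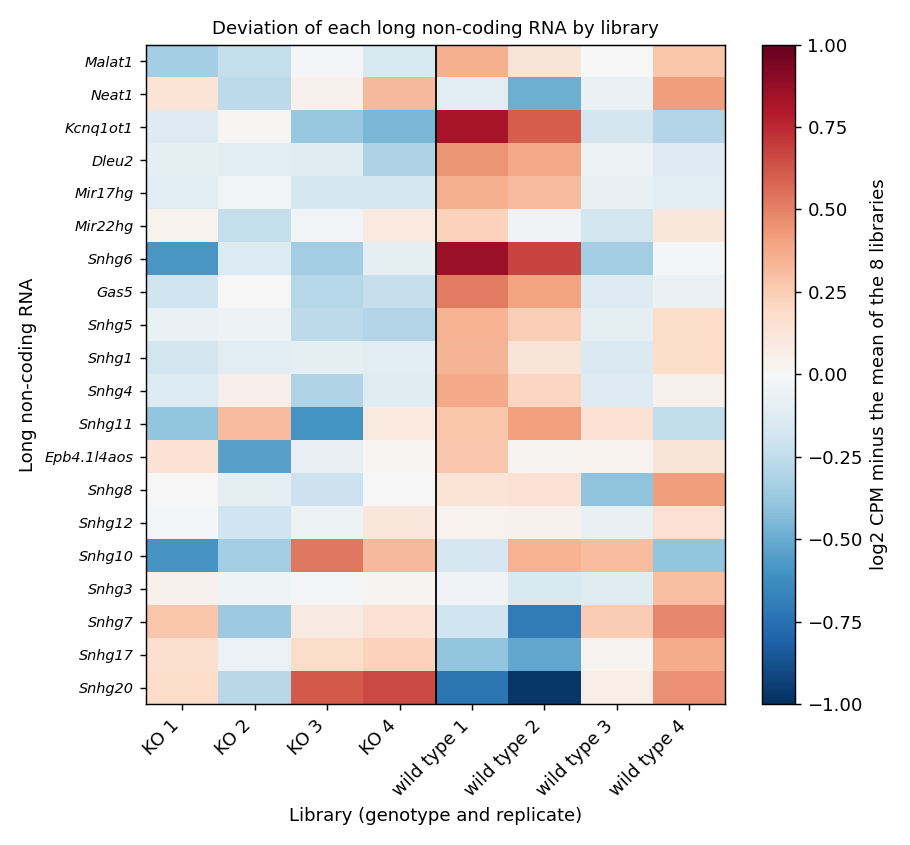
Log2 CPM of the 20 long non-coding RNAs that are not opposite-strand RNAs in each library, as the deviation from each RNA's mean over the 8 libraries (red above, blue below). Wild-type replicates 1 and 2 are the 2 highest libraries for 7 of the 20 RNAs and the 2 lowest for Snhg17 and Snhg20; Malat1 is also high in wild-type replicate 4.

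This pattern by library was counted over the 20 members outside the opposite-strand group, and not over all genes. Whether it is particular to these RNAs was therefore not tested. Wild-type replicates 1 and 2 were the highest 2 libraries for Kcnq1ot1, Dleu2, Mir17hg, Snhg6, Gas5, Snhg5 and Snhg4. They were the lowest 2 for Snhg17 and Snhg20. Wild-type replicate 1 alone was the highest library for 11 of the 20, wild-type replicate 4 for 6, and no KO library for more than 1. Malat1 was highest in wild-type replicate 1, then 4, then 2.

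The 21 opposite-strand RNAs were split evenly, 11 higher and 10 lower in KO, with a median log2 fold change of 0.01. Without wild-type replicates 1 and 2 these were 12, 9 and 0.11. They share a naming convention rather than a function, and little is known of most. Ttc39aos1 and Bach2os, both lower, had an unadjusted p under 0.05. Bach2os (chr4:32559680-32571662, minus strand) had 15.5, 15.6, 14.5 and 14.9 CPM in KO and 19.9, 21.9, 16 and 15.9 CPM in wild type. Its groups did not overlap, as for 1.42% of all genes in that direction, and its lowest wild-type libraries lay just above the KO libraries. Its fitted log2 fold change was -0.28 (SE 0.12), -0.08 without wild-type replicates 1 and 2, and -0.20 after GC correction.

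Ttc39aos1 (chr4:109402279-109406257, minus strand) had the largest difference of the 41. It was counted at 3.22, 4.77, 3.27 and 2.74 CPM in the KO replicates, against 9.77, 14.1, 3.78 and 4.11 CPM in the wild-type replicates. Wild-type replicates 3 and 4 lay within the KO range. Its log2 fold change of -1.17 (SE 0.43) was -0.17 without wild-type replicates 1 and 2 and -1.02 after GC correction. Foxd2os and Phtf1os, next by p in this group, had -0.30 (SE 0.16) and -0.48 (SE 0.33), or -0.06 and 0.05 without wild-type replicates 1 and 2.

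Brip1os and Zeb2os, the most abundant of the opposite-strand RNAs per length, were steady across the libraries. Brip1os ranged from 105 to 131 CPM, with means of 119 ± 8.96 in KO and 115 ± 10.3 in wild type. Zeb2os ranged from 18.6 to 23.2 CPM, with means of 21.2 ± 1.37 and 20.3 ± 1.95. The 95% intervals of their log2 fold changes were -0.15 to 0.25 and -0.15 to 0.28, and without wild-type replicates 1 and 2 the values were -0.04 and -0.05. Of the 21, 9 share exon bases with a gene on the other strand, and none of the other 20 long non-coding RNAs does. The shared part was 60.0% for Phtf1os, 42.1% for Zbtb11os1, 23.97% for Zeb2os, 23.8% for Bach2os and 20.1% for Brip1os. The authors' mapping statistics put coding reads at 12.69 to 14.01% in reverse orientation and 0.09 to 0.11% in the other, so the reads carried strand information. Whether they were counted by strand is not given in the sources used here. It is therefore unknown whether these counts keep the RNAs apart from the genes opposite.

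**Figure D4:**
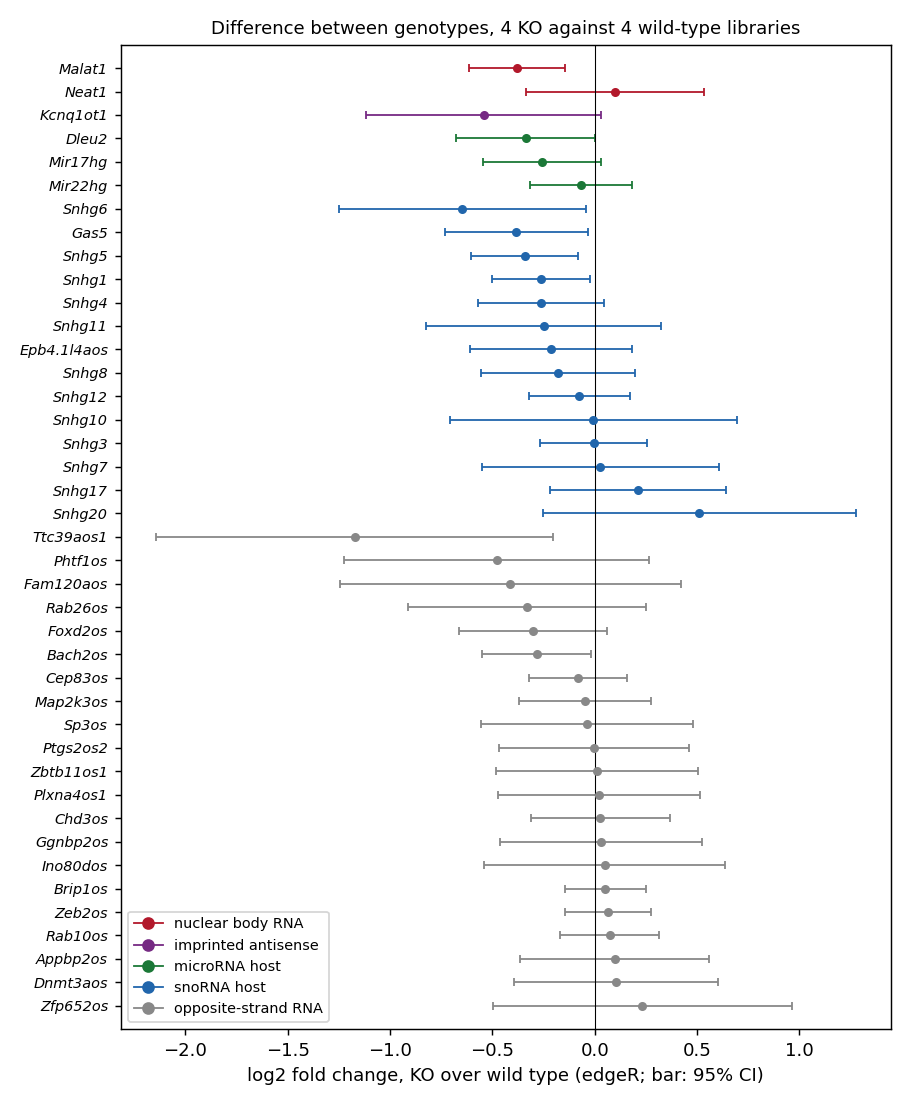
Log2 fold change, KO over wild type, of each of the 41 long non-coding RNAs with its 95% confidence interval from the edgeR fit, grouped by role. The intervals of 7 RNAs lie below 0 and none lies above 0; none of the 41 passed after adjustment.

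Over all 41, 26 were lower and 15 higher in KO, with a median log2 fold change of -0.07. The counts were again 26 and 15 without wild-type replicates 1 and 2, with a median of -0.05. None passed at an adjusted p under 0.05 (0.0% of all genes). An unadjusted p under 0.05 was found for 7, all lower, beside 4.51% of all genes in that direction. With 1 library left out the number was 13 without wild-type replicate 4, beside 45.1% of all genes in either direction, and 12 without wild-type replicate 3, beside 14.5%. It was 2 to 4 without any other library, beside 1.16 to 14.1% of all genes. Groups did not overlap for 2, Malat1 and Bach2os, both lower, beside 2.64% of all genes, 1.42% lower and 1.22% higher. Only 17 of the 41 kept their sign in every one of the 18 other settings that gave them a value, Malat1 among them. The setting without an expression filter is the same as the main fit. The log2 fold change went with transcript GC content, with a Spearman rho of 0.38 over 38 members and 0.72 over 11472 genes. These genes share their libraries, and the part of GC content in the differences was not tested.

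Transcripts of the genes for proteins of the bodies and pathways in which these RNAs act were read from the same fit. Protein levels were not measured. Of 14 paraspeckle protein genes, 13 were lower in KO and 1 was higher, with a median of -0.22, and none passed after adjustment. Without wild-type replicates 1 and 2, 9 were lower and 5 higher, with a median of -0.04. Taf15 and Hnrnph3, RNA-binding proteins found in paraspeckles, were at -0.30 and -0.55, or -0.11 and -0.04 without those libraries. Hnrnph3 had 24.2, 29.9, 23.4 and 22.7 CPM in KO and 50.1, 45.2, 25.7 and 25.9 CPM in wild type, with wild-type replicates 1 and 2 again far above. Of 13 nuclear speckle protein genes, 11 were lower, with a median of -0.09, or 8 with a median of -0.02 without those libraries. The splicing factor Srsf5 was at -0.35 (SE 0.13), the only one at an unadjusted p under 0.05, with Pnn at -0.56 and Srsf11 at -0.39. Without wild-type replicates 1 and 2 these 3 were at -0.15, 0.01 and -0.03.

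Genes for proteins that act on these RNAs or their products were split between both directions. Here each value without wild-type replicates 1 and 2 follows the value with all libraries. Of 10 genes for proteins of snoRNA particles, 5 and then 7 were lower, with medians of 0.00 and -0.03. The box C/D core protein Nop58 was at -0.33 (SE 0.14) and then -0.07. Dkc1, the pseudouridine synthase of box H/ACA particles, was at -0.37 and then -0.05, and the assembly factor Naf1 at -0.42 and then 0.02. Of 10 nonsense-mediated decay factors, 6 and then 5 were lower, with Upf3b at -0.65 and then -0.11, Upf3a at -0.21 and then -0.05, and Smg9 at 0.32 and then 0.07. Of 11 genes for proteins of RNase P and RNase Z, 5 and then 4 were lower, and none had an unadjusted p under 0.05. RNase P cuts the Malat1 end shown above. The RNase P subunits Rpp30 and Rpp38 were at -0.33 and -0.28 and then at 0.03 and 0.005, and Elac2, the RNase Z, was at 0.18 and then 0.04. Of 10 microRNA processing genes, 6 and then 4 were lower, with the helicase Ddx5 at -0.29 and then -0.08, the nuclease Drosha at -0.22 and then -0.05, and the Dicer partner Tarbp2 at 0.56 and then 0.10. No gene of these 6 lists passed after adjustment (lowest adjusted p = 0.404).

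Markers of other cells that could be in the cultures gave mixed values. The 10 neutrophil markers, all counted, summed to 274 to 310.4 CPM in KO and 317 to 353 CPM in wild type, without overlap. Of 10 stromal and osteoblast markers 7 were counted, at 23.8 to 96.6 CPM in KO and 12.6 to 132 CPM in wild type, with Dcn, Lum and Bglap not among the genes. Of 3 megakaryocyte markers 2 were counted, Itga2b and Pf4, at 151 to 185 CPM in KO and 152 to 197 CPM in wild type. All of these lists are far below the macrophage sum, and their part in the Malat1 and host differences was not tested.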

How the data were processed

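RNA-seq libraries of 4 KO and 4 wild-type macrophage cultures were analysed, grouped by the genotype label, with replicates numbered in accession order. The read counts per gene are the authors' raw counts from the deposited table, made after STAR alignment to mm10, per the submitters' processing notes. No source used here gives the counting tool's version, annotation release, strand setting or gene filter. The log2 FPKM values are also the authors', deposited beside the counts, and served only to order levels. The percent of mitochondrial, uniquely mapped and ribosomal RNA reads are the authors' deposited mapping statistics.

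Counts of all 11541 genes were fitted with edgeR 4.0.16 in R 4.3.3 (quasi-likelihood F test, two-sided, TMM factors, default expression filter, which removed no gene) and p-values were adjusted by Benjamini-Hochberg over all genes, with a call at an adjusted p under 0.05. SEs and 95% intervals came from the same fit. The script was tested on simulated counts. Alternatives used DESeq2 1.42.0, limma 3.58.1 (voom), other scaling factors and filters, the ribosomal RNA percentage as a covariate, libraries left out, and log2 CPM (prior count 2) corrected in each library by a lowess curve (span 0.3) on transcript GC content, known for 11472 genes. Library measures were compared by an exact permutation test over 70 assignments. Intervals cover the spread between libraries only.

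The members, gene lists and settings were chosen with earlier results of these data known. The list counts and the comparison with the hosts without wild-type replicates 1 and 2 were added after seeing the data. Named were the listed RNAs, all Snhg genes, the 4 opposite-strand RNAs with the smallest p and the 2 most abundant, and the 3 smallest p of each protein list, of which 1 gene is not reported here. Other opposite-strand RNAs were named where they share exon bases or a start motif. Sequences and coordinates are from RefSeq (GRCm38.p6) and GENCODE M21, the same build as mm10. Start windows were matched by symbol, and sequence of chromosome 18 genes is not shown.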

Additional observations from a re-analysis of the deposited data

Results flagged for a closer look

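Dleu2 in KO replicate 4 stood apart from the other KO libraries, at 5.806 CPM against 6.61 to 6.75 CPM in the other 3. Its gap to the nearest library, as a share of the group's range, was above Dixon's 95% critical value for 4 samples. Of the 20 long non-coding RNAs outside the opposite-strand group, in both genotypes, this was the 1 group of 40 tested that did so, and chance alone gives about 1 in 20.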

How the results depend on the processing

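None of the 41 long non-coding RNAs was called at an adjusted p under 0.05 in any of the 18 other settings. The setting without an expression filter repeats the main fit, because the default filter removed no gene. At an unadjusted p under 0.05 the number was 7 in edgeR (6.52% of all genes), 9 in DESeq2 (10.2%), 3 in limma-voom (4.64%) and 1 without wild-type replicates 1 and 2 (0.996%). At an adjusted p under 0.1 there was 0 with all libraries and 13 without wild-type replicate 4. The share of all genes at that threshold was not counted, so nothing is read from the 13. In the same fit 45.1% of all genes had an unadjusted p under 0.05, a different threshold. The log2 fold change of Malat1 was -0.38, ranged from -0.44 to -0.32 with 1 library left out, and was -0.19 after GC correction. The median of the snoRNA hosts was -0.20, and ranged from -0.25 to -0.13 with 1 library left out. It was -0.053 after GC correction and -0.092 without wild-type replicates 1 and 2. With KO replicate 2 left out as well, this median was -0.14 and Malat1 was at -0.31. The cause of these shifts was not tested. The sign turned in at least 1 setting for 24 of the 41. Depth limits Snhg10, Snhg11 and the least abundant opposite-strand RNAs, with as few as 12 reads in a library. No paired analysis was possible because the replicate numbers follow accession order only and no number in the titles recurs between libraries.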
